A study of Mus musculus with 19 samples.

Results

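Cbln1, Nrn1, Islr2, Tbata and Cyp11a1 are 5 of the 18193 genes that the probe annotation names on a mouse expression array, and they were chosen by their measured values: each is among the largest falls in NEPs, Nestin-positive progenitors of the mouse cerebellum, against GNPs, the Math1-positive granule neuron progenitors. The question here is which of the 5 genes come back in tumors begun from either progenitor. The study measured RNA on 19 Affymetrix Mouse430+2 arrays in 5 groups, all from C57BL/6 mice. NEP tumors are tumor cells of Nestin-CreERT2/Ptch1C/C mice (4 arrays) and GNP tumors are tumor cells of Math1-CreERT2/Ptch1C/C mice (4 arrays), so both tumors carry the same Ptch1 allele and differ in the promoter that drives the tamoxifen-responsive Cre recombinase. NEPs (4 arrays) and GNPs (4 arrays) are progenitors collected as Nestin-positive or Math1-positive cells. NSCs (3 arrays) are labelled neural stem cells and were collected as cerebellar cells positive for CD133 and free of lineage markers. No genotype beyond the strain is given for the 3 progenitor groups. Cells were taken straight from the cerebellum with no culture and no treatment before RNA extraction. The labels give no age, sex, day of Cre induction or pooling, and do not state whether each array had its own animal, so p-values measure only the spread between these arrays.

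Granule neurons are the small excitatory neurons of the cerebellar cortex. Their progenitors, which need the transcription factor Atoh1 (Math1), divide in the outer layer of the young cerebellum under Sonic hedgehog, and Ptch1 is the receptor that holds that pathway in check. Loss of Ptch1 in this lineage is a known route to medulloblastoma in mice. Of the 5 genes, Cbln1 encodes a secreted protein of granule neurons that links presynaptic neurexin to the glutamate receptor GluD2 on Purkinje cells. Nrn1 encodes neuritin, a membrane-anchored protein that promotes neurite growth. Islr2 encodes a transmembrane protein with immunoglobulin and leucine-rich repeat domains that acts in axon growth in the mouse. Tbata is named for the thymus, brain and testis in which it is found, and Cyp11a1 encodes the mitochondrial enzyme that turns cholesterol into pregnenolone, the first step of steroid synthesis. Tbata and Cyp11a1 are not textbook granule neuron markers, so the 5 genes are described here by the rule that chose them.

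In the RefSeq gene table of build GRCm38.p6, Cbln1 lies at chr8:87468853-87472592, Nrn1 at chr13:36725622-36734477 and Tbata at chr10:61171964-61188841. Cyp11a1, at chr9:57998024-58027031, and Islr2, at chr9:58196297-58204319, are near neighbours on the same chromosome, with 198 kb between their lowest coordinates. The RefSeq promoter table matched 3 of the 5 genes, and the 250 bases before the annotated start are shown because these genes parted in the tumors, Tbata and Cyp11a1 above their GNP level and Islr2 far under it in NEP tumors. Capitals mark CAGCTG, which reads the same on both strands and is an E-box, the kind of site bound by basic helix-loop-helix factors such as Atoh1.
Cyp11a1, chr9:57997774-57998023, plus strand: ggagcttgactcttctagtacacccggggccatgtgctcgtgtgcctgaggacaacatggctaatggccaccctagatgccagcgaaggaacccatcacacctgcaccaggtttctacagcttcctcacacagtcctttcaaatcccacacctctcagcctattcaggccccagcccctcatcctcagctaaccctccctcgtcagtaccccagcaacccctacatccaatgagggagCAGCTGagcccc
Tbata, chr10:61171714-61171963, plus strand: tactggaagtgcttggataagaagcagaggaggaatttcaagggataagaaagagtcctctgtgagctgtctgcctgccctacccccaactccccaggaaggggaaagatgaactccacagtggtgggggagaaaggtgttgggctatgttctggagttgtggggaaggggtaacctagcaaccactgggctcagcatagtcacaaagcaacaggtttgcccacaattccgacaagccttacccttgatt
Islr2, chr9:58204320-58204569, minus strand: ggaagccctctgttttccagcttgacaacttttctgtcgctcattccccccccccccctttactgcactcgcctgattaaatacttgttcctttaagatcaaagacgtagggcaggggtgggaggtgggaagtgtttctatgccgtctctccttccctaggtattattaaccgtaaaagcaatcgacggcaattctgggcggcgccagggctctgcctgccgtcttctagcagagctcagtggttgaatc
CAGCTG occurred 1 time, with its first base at position -12 from the start of Cyp11a1, and in none of the other 5 windows read for the 3 genes, which include the further start sites of Islr2 and Cyp11a1. Of the 32851 promoter windows of that length in the table, 13% hold it. Another E-box, CAGATG, which 14.4% of windows hold on either strand, and the GLI-type site GACCACCCA, which 0.225% hold on either strand, were in none of the 6 windows. A match is a description of letters, not a bound site.

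Values are log2 probe set signals as deposited, where 1 unit is a doubling of array signal, and each gene is read from whichever of its probe sets had the highest average signal across the 19 arrays. Signals of different probe sets are not compared with each other. The median of all probe sets lay between 2.44 and 2.57 on each array, and a gene was tested if it reached that median on at least 3 arrays, as 12148 genes did, the 5 among them. The number of arrays limits the precision. NEP and GNP arrays share one number in their titles and the tumor and NSC arrays another, so title series and group cannot be told apart in any comparison across the 2 series. Poly-A spike-in RNA averaged 8.82 on the 8 arrays of NEPs and GNPs and 6.67 on the other 11.

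Genes named in the labels were checked first and bore them out only partly. Ptch1 averaged 11.46 ± 0.090 in NEP tumors, 11.21 ± 0.036 in GNP tumors, 10.52 ± 0.29 in NEPs, 10.28 ± 0.090 in GNPs (SD, n = 4 each) and 10.26 ± 0.028 in NSCs (n = 3). Whether its probe set lies in the deleted part of the gene is not known from the files, so this value does not check the deletion. Nes, which encodes Nestin, was higher on every NEP array than on any GNP array. Atoh1 stood at 2.85, 2.38, 5.67 and 4.90 on NEP arrays 1 to 4, against 8.77 to 8.96 in GNPs. The arrays labelled NSC had Atoh1 at 8.92 to 8.94, close to the GNP level. Their Prom1, the gene of CD133, averaged 8.08, against 7.24 in GNPs and 8.61 in NEPs, which were not collected by CD133. Their medians over 19 granule progenitor markers, 9.60 to 9.64, lay beside 9.64 to 9.91 in GNPs. Their medians over 12 mesenchymal and endothelial markers were 7.58 to 7.70, against 2.16 to 3.16 in GNPs, and over 12 glial markers 7.22 to 7.39, against 3.48 to 4.88 in GNPs. They are therefore called NSCs only as a label, for a sample that carries RNA of the granule lineage and of these other markers.

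The 5 genes did not stand at background on all NEP arrays. NEP arrays 1 and 2 carried Cbln1 at 2.88 and 3.04, the 53.7 and 55.7 percentiles of those arrays, while NEP arrays 3 and 4 carried it at 6.79 and 5.67, the 81.6 and 74.5 percentiles. Nrn1 was split likewise, at 2.52 and 3.23 on NEP arrays 1 and 2 and at 6.89 and 6.27 on NEP arrays 3 and 4. For Cbln1, Nrn1 and Islr2, "absent from NEPs" thus fits arrays 1 and 2 and not arrays 3 and 4. Tbata, at 2.35, 2.46, 4.00 and 3.53 on NEP arrays 1 to 4, stayed at or under the 64.0 percentile. Cyp11a1, at 3.14, 2.92, 4.01 and 4.22, stayed at or under the 65.2 percentile.

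Marker lists moved with that split. On NEP arrays 1 to 4, the median of 11 microglia and macrophage markers was 8.83, 8.70, 3.74 and 2.03, against 1.71 to 2.08 in GNPs. None of the 11 was under the array median on NEP arrays 1 and 2, 3 were on NEP array 3 and 8 on NEP array 4. The median of 12 mesenchymal and endothelial markers was 9.02, 9.06, 6.24 and 5.08 on NEP arrays 1 to 4, against 2.16 to 3.16 in GNPs. The median of 23 postmitotic granule neuron markers was 6.59, 6.46, 8.43 and 8.00, against 9.03 to 9.07 in GNPs. Their part in the NEP values of the 5 genes was not tested. In bulk samples, fewer cells of a type and less RNA per cell cannot be told apart.

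NEPs against GNPs is the contrast that chose the members, so its values carry no test. Over all 4 NEP arrays, NEP minus GNP was -5.37 for Islr2, -5.24 for Cbln1, -5.03 for Nrn1, -4.92 for Tbata and -4.75 for Cyp11a1. These are places 3, 4, 6, 9 and 14 among the falls of the 12148 genes tested. The larger falls outside the 5 genes include Cadps2, a dense-core vesicle priming protein of granule neurons (-5.52), and the homeobox genes Uncx (-5.41) and Barhl1 (-5.12). Around Cyp11a1, the smallest fall of the 5, the next gene above was Mab21l1 at -4.75 and the next below was Sult4a1 at -4.70. Every NEP array was under every GNP array for 5 of 5 genes, as the rule fixes, where 32.7% of the genes tested had NEPs lower without overlap. With NEP arrays 3 and 4 alone the differences were -3.60 for Cbln1, -3.17 for Nrn1, -3.82 for Islr2, -4.25 for Tbata and -4.21 for Cyp11a1. NEPs were under NSCs on every array for the 5 genes, by 3.91 (Cbln1) to 5.14 (Islr2) log2 units, where 27.2% of the genes tested were lower without overlap. The same low NEP arrays chose the genes, so this is no separate result. It also crosses the title series and carries no test.

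**Figure D1:**
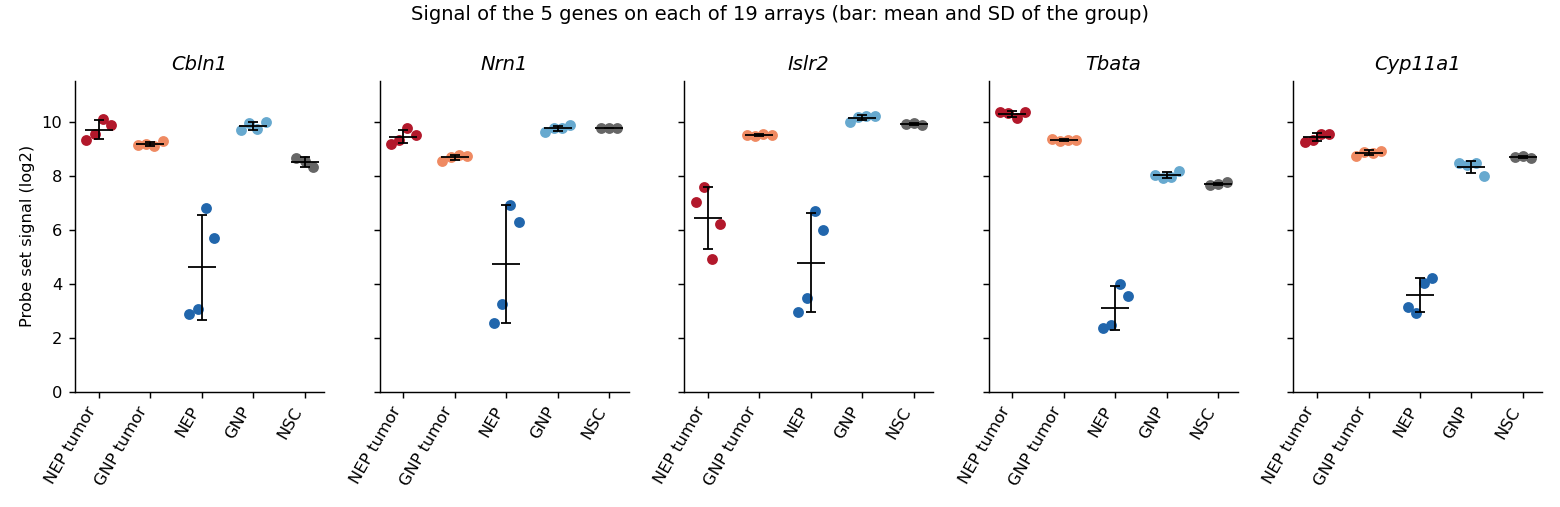
Log2 probe set signal (vertical axis) of Cbln1, Nrn1, Islr2, Tbata and Cyp11a1 on each array, by group, with the group mean and SD as bars. NEP arrays spread from 2.35 to 6.89 over the 5 genes, GNP arrays are high for all 5, and NEP tumor arrays are high for all but Islr2, which lies between 4.91 and 7.57 there.

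Cbln1, the synaptic organizer, stood in NEP tumors at the level of GNPs. NEP tumor arrays 1 to 4 read 9.31, 9.55, 10.08 and 9.87, GNP tumor arrays 9.12, 9.15, 9.11 and 9.27, and GNP arrays 9.69, 9.95, 9.72 and 9.97. Every NEP tumor array was above every GNP tumor array, and NEP tumors overlapped with GNPs while GNP tumors lay under GNPs. NSC arrays read 8.66, 8.55 and 8.31, under both tumors. The group means were 9.70 ± 0.34 in NEP tumors, 9.16 ± 0.076 in GNP tumors, 4.60 ± 1.94 in NEPs, 9.83 ± 0.15 in GNPs (SD, n = 4 each) and 8.51 ± 0.18 in NSCs (n = 3). In the fit of all arrays, the NEP tumor minus GNP tumor difference was 0.54 (SE 0.60, limma adjusted p = 0.573), which does not pass. The other probe sets of Cbln1 differed the same way, by 0.85 and 0.93.

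Nrn1 followed Cbln1, with a correlation of 0.962 over the 19 arrays, which share the group structure and carry no p. Its signal was 9.18, 9.32, 9.74 and 9.52 on NEP tumor arrays 1 to 4 and 8.54, 8.69, 8.76 and 8.73 on GNP tumor arrays 1 to 4. GNP arrays read 9.63, 9.77, 9.76 and 9.86, and NSC arrays 9.77, 9.75 and 9.77. NEP tumors were above GNP tumors on every array and overlapped with GNPs, while GNP tumors were lowest of these 4 groups. Nrn1 averaged 9.44 ± 0.25 in NEP tumors and 8.68 ± 0.097 in GNP tumors (SD, n = 4 each), a difference of 0.76 (SE 0.66, limma adjusted p = 0.454). A single probe set measures Nrn1.

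Islr2 was the exception among the 5 genes, staying low in NEP tumors and high in GNP tumors. NEP tumor arrays 1 to 4 read 7.02, 7.57, 4.91 and 6.20, and GNP tumor arrays 9.49, 9.45, 9.54 and 9.50. NEP arrays read 2.95, 3.48, 6.67 and 5.99, GNP arrays 9.99, 10.18, 10.21 and 10.20, and NSC arrays 9.92, 9.95 and 9.88. All NEP tumor arrays were under all GNP tumor, GNP and NSC arrays, and they overlapped with NEP arrays 3 and 4. NEP tumor minus GNP tumor was -3.07 (SE 0.65, limma adjusted p = 0.00290; 6.43 ± 1.15 against 9.49 ± 0.033, SD, n = 4 each), the place 11 from the lowest of all 12148 genes. The difference was -2.20 with NEP tumor arrays 1 and 2 alone (limma adjusted p = 0.0453) and -3.94 with NEP tumor arrays 3 and 4 alone (limma adjusted p = 0.00254). NEP tumor minus NSC was -3.49 (SE 0.70, limma adjusted p = 0.000715).

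The lower Islr2 of NEP tumor arrays 3 and 4 came with other markers on the same arrays. Medians of 9 Purkinje and GABAergic markers were 3.25, 2.98, 4.67 and 4.34 on NEP tumor arrays 1 to 4, against 2.26 to 2.81 in GNP tumors. Medians of 23 postmitotic granule neuron markers were 7.97, 7.75, 8.71 and 8.43, against 6.93 to 7.41 in GNP tumors. Medians of 12 mesenchymal and endothelial markers were 3.37, 3.20, 4.62 and 4.28, against 3.36 to 3.68 in GNP tumors. Medians of 12 glial markers were 6.80, 6.91, 7.25 and 7.28, against 6.69 to 6.81 in GNP tumors. All 4 lists thus stood higher on NEP tumor arrays 3 and 4 than on arrays 1 and 2, and so did the remaining cell type lists. On NEP tumor arrays 1 to 4, medians of granule progenitor markers were 9.79, 9.55, 10.05 and 9.86. Those of oligodendrocyte lineage markers were 7.69, 7.51, 7.96 and 7.79, and those of microglia markers 3.77, 3.61, 4.48 and 3.99. The split is thus not particular to 1 cell type. Nes stood at 6.84, 6.80, 5.17 and 6.04 on NEP tumor arrays 1 to 4, lowest on array 3 as Islr2 was, against 5.12 to 5.38 in GNP tumors. The part of these genes in the Islr2 difference was not tested. A single probe set measures Islr2.

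Tbata went past its GNP level in both tumors. NEP tumor arrays 1 to 4 read 10.36, 10.33, 10.13 and 10.35, and GNP tumor arrays 9.35, 9.26, 9.31 and 9.32. GNP arrays read 8.01, 7.92, 7.93 and 8.18 and NSC arrays 7.64, 7.68 and 7.74. The groups do not overlap and run NEP tumor, GNP tumor, GNP, NSC and NEP from high to low. NEP tumors were above GNP tumors by 0.98 (SE 0.25, limma adjusted p = 0.0100; 10.29 ± 0.11 against 9.31 ± 0.038, SD, n = 4 each). With NEP tumor arrays 3 and 4 alone the difference was 0.93 and did not pass (limma adjusted p = 0.0678). Both tumors were above NSCs, NEP tumors by 2.60 (SE 0.27, limma adjusted p = 8.90e-07) and GNP tumors by 1.62 (SE 0.27, limma adjusted p = 1.08e-04). The NEP tumor minus NEP difference of Tbata, 7.21, was the largest rise of the 12148 genes tested. That place leans on the NEP arrays that chose the gene and crosses the title series. Tbata was under the array median on 2 of 4 NEP arrays, so the size of this rise is uncertain. Its other 3 probe sets gave tumor differences of 1.06, 0.73 and 0.91.

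Cyp11a1 also passed its GNP level in both tumors on the probe set used. NEP tumor arrays 1 to 4 read 9.24, 9.33, 9.54 and 9.55, and GNP tumor arrays 8.71, 8.89, 8.83 and 8.92. GNP arrays read 8.46, 8.38, 8.45 and 7.99, and NSC arrays 8.68, 8.71 and 8.64. NEP tumors lay above every other group and GNP tumors above GNPs. The tumor difference of 0.58 (SE 0.21, limma adjusted p = 0.0602; 9.41 ± 0.15 against 8.84 ± 0.090, SD, n = 4 each) did not pass. NEP tumors were above NSCs by 0.74 (SE 0.23, limma adjusted p = 0.0156), a call that was lost with NEP tumor arrays 1 and 2 alone (0.61, limma adjusted p = 0.111).

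The probe sets of Cyp11a1 disagree, which limits what its signal stands for. Another probe set of the gene never rose above 2.91 on any array and was under the array median on 11 of 19. It averaged 2.80 in NEP tumors, 2.65 in GNP tumors, 1.21 in NEPs, 2.44 in GNPs and 2.12 in NSCs, so its NEP minus GNP difference was -1.23 and its tumor difference 0.15. A further one was under the array median on all 19 arrays. With the mean of the probe sets, NEP minus GNP of Cyp11a1 was -2.08 in place of -4.75.

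**Figure D2:**
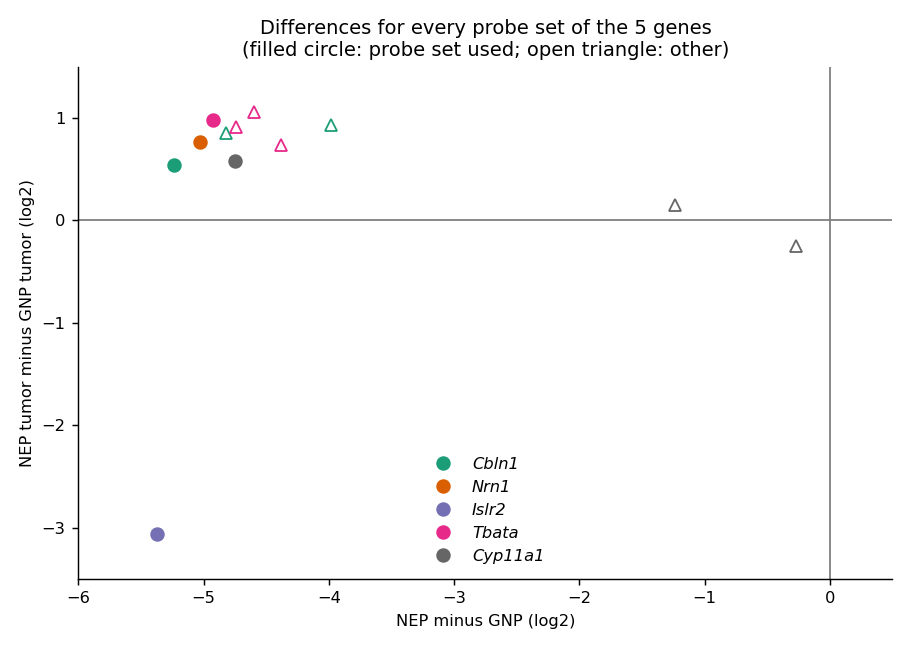
NEP minus GNP (horizontal axis, log2) against NEP tumor minus GNP tumor (vertical axis, log2) for each probe set of the 5 genes, with filled circles for the probe set used and open triangles for the others. Probe sets of Cbln1 and Tbata lie close together, those of Cyp11a1 run from -4.75 to -0.27 on the horizontal axis, and Islr2 is alone at -3.07 on the vertical axis.

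How far each gene returned is given as the place of a tumor mean between the NEP mean, 0%, and the GNP mean, 100%, on the log2 scale. NEP tumors stood at 97.5% for Cbln1, 93.7% for Nrn1, 30.8% for Islr2, 146% for Tbata and 123% for Cyp11a1. GNP tumors stood at 87.2% for Cbln1, 78.6% for Nrn1, 87.9% for Islr2, 126% for Tbata and 111% for Cyp11a1. Leaving out any single array moved Islr2 in NEP tumors between 22.0% and 40.2%, and with NEP arrays 3 and 4 as the NEP level it was 2.59%. By this measure 4 of the 5 genes were back near or above the GNP level in NEP tumors and Islr2 was not. The NEP and GNP means that set 0% and 100% chose the genes, and no share over all genes was taken. Such a return was not particular to these genes. Of the 3 largest falls outside the members, Uncx averaged 10.02 in NEP tumors against 10.12 in GNPs. Barhl1 averaged 9.41 against 8.75, and Cadps2 8.34 against 10.43.

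**Figure D3:**
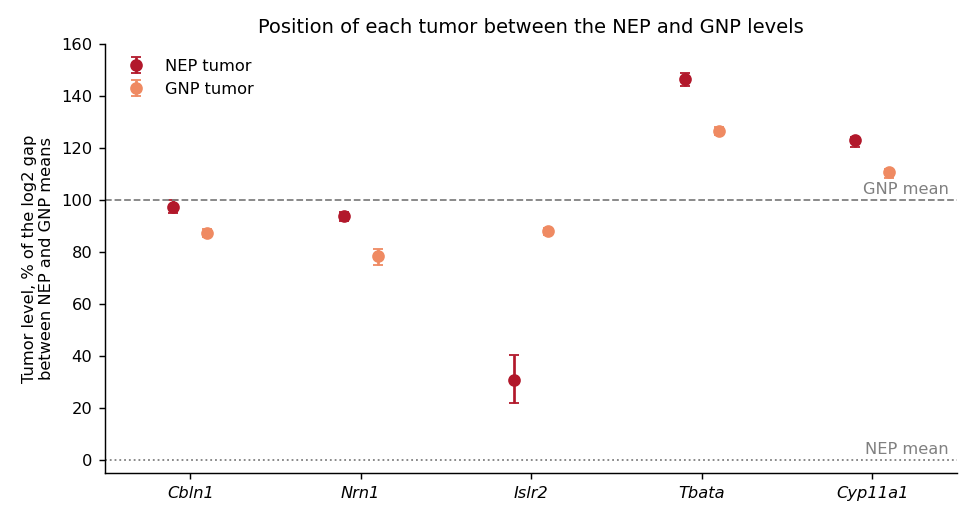
Tumor mean as a percentage of the log2 gap between the NEP mean (0%) and the GNP mean (100%) for each gene, with NEP tumor and GNP tumor as separate points and the range over leaving out each array as bars. Islr2 in NEP tumors, at 30.8%, is the only point under the 78.6% of Nrn1 in GNP tumors.

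Set against their own progenitors, the 2 tumors differ in where they start. NEP tumor minus NEP was 5.11 for Cbln1, 4.71 for Nrn1, 1.66 for Islr2, 7.21 for Tbata and 5.84 for Cyp11a1. NEP tumor arrays were above all NEP arrays for 4 of 5 genes, where 28.7% of the genes tested were, and 77.0% of the 244 genes that stood at least 2 log2 units lower in NEPs than in GNPs. The share among the 5 genes is thus near that of all genes with a large fall in NEPs, and Islr2 belongs with the minority that overlap. Against NEP arrays 3 and 4 alone, Islr2 differed by 0.099 and the other genes by 2.86 (Nrn1) to 6.53 (Tbata). GNP tumor minus GNP was -0.67 for Cbln1, -1.07 for Nrn1, -0.65 for Islr2, 1.30 for Tbata and 0.52 for Cyp11a1. GNP tumors were lower without overlap for 3 of the 5 genes (background 32.9%) and higher for 2 (background 22.0%). Against GNPs, NEP tumors were higher without overlap for Tbata and Cyp11a1, by 2.28 and 1.09 (background 20.5%), and lower for Islr2, at -3.72 (background 25.0%), while Cbln1 and Nrn1 overlapped. GNP arrays took part in choosing the genes, and the backgrounds against GNPs cover all genes tested, so these counts are a description.

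Between the tumors, which the rule did not use, Tbata passed as higher and Islr2 as lower in NEP tumors in the fit of all arrays. That is 1 of 5 higher, where 15.5% of the genes tested were called higher, and 1 of 5 lower, where 8.10% were. The arrays of the 2 tumors do not overlap for any of the 5 genes: 4 were higher in NEP tumors (background 19.9%, and 32.4% among the 244 genes with a large fall in NEPs) and 1 was lower (background 13.0%, and 13.9% among those 244). The fit shares one spread per gene over the 5 groups, and the SD of the NEP arrays was 1.83 for Islr2, 1.94 for Cbln1 and 2.17 for Nrn1. With NEP arrays left out of the fit, a setting added after seeing the data, all 5 genes passed between the tumors, Cbln1 at adjusted p = 0.00756, Nrn1 at 6.12e-05 and Cyp11a1 at 0.000641 by limma. In that fit 33.2% of all genes tested passed, so the call for Cbln1, Nrn1 and Cyp11a1 turns on whether NEP arrays add to the spread. The median difference of the 5 genes was 0.58, against 0.05 over all genes tested.

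Against NSCs, NEP tumors were called higher for Tbata and Cyp11a1 (background 23.9%) and lower for Islr2 (background 20.4%). Cbln1, at 1.19 (SE 0.65, limma adjusted p = 0.146), and Nrn1, at -0.32 (SE 0.71, limma adjusted p = 0.744), did not pass. GNP tumors were called higher than NSCs for Tbata alone (background 22.2%), and no member was called lower (background 25.4%). Their differences from NSCs were 0.65 for Cbln1, -1.08 for Nrn1, -0.42 for Islr2 and 0.16 for Cyp11a1. With NEP arrays left out of the fit, 5 genes passed for NEP tumors against NSCs (53.7% of all genes) and 3 for GNP tumors against NSCs (56.6% of all genes). Markers of other cells differed in the same comparisons: of 12 mesenchymal and endothelial markers, NEP tumors had 9 called lower than NSCs and GNP tumors had 11, with medians of -3.22 and -3.29, and 0 higher in either. Of 12 glial markers, 7 were called lower and 3 higher in NEP tumors, and 7 lower and 2 higher in GNP tumors. Their part in the differences of the 5 genes from NSCs was not tested.

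Genes that work with the 5 did not move as a block between the tumors. The first list held 10 tested genes other than Cbln1: cerebellins, C1q-like proteins, neurexins, neuroligins and the glutamate receptor gene Grid1. Their median difference was 0.13, against 0.05 over all genes. Of the 10, 3 were higher in NEP tumors (15.5% of all genes) and none lower (8.10%). They were C1ql3, a secreted synaptic ligand (8.36 ± 0.089 in NEP tumors, 7.33 ± 0.16 in GNP tumors, difference 1.03), Cbln3, the granule cell partner of Cbln1 (0.71), and the neurexin gene Nrxn2 (0.44, lost after a second quantile normalization). Cbln4, another cerebellin, averaged 7.31 ± 0.39 in NEP tumors and 7.27 ± 0.13 in GNP tumors, against 1.98 ± 0.20 in NSCs. Cbln4 rose against NSCs in NEP tumors (limma adjusted p = 3.62e-12) and in GNP tumors (limma adjusted p = 3.25e-12). It was under the array median on 3 of 3 NSC arrays, 3 of 4 NEP arrays and 3 of 4 GNP arrays, so the size of the rise is not given.

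Of 7 tested genes linked to neuritin or neuronal activity, 3 were higher (15.5% of all genes) and 1 lower (8.10%) in NEP tumors, with a median of 0.28 against 0.05 over all genes. Nptx1, a secreted neuronal pentraxin, averaged 5.32 ± 0.39 in NEP tumors and 2.02 ± 0.11 in GNP tumors (SD, n = 4 each; limma adjusted p = 1.14e-08). It was under the array median on 4 of 4 GNP tumor arrays, so the size of its difference is not given. Npas4, an activity-induced transcription factor, was higher by 1.87 and the synaptic scaffold Homer1 by 0.40. Ncam1, a neural adhesion molecule, was lower, at -0.27. Of 12 tested relatives of Islr2 and Trk and Ret receptor genes, 3 were higher in NEP tumors (15.5% of all genes) and none lower (8.10%), with a median of 0.07. These were Ret (3.76 in NEP tumors against 2.40 in GNP tumors, where it was under the array median on 4 of 4 arrays), the neurotrophin receptor gene Ngfr (1.19) and the Ret co-receptor gene Gfra2 (1.05). Islr2 moved opposite to these 3 called genes. Islr and Ntrk3, on the same list, were not called but were lower in NEP tumors without overlap, as Islr2 was. Islr read 6.39 to 6.76 in NEP tumors and 7.38 to 7.59 in GNP tumors, and Ntrk3 8.88 to 9.01 and 9.39 to 9.52. Their SDs over the NEP arrays, which enter the fit, were 1.24 and 0.48.

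Of 8 tested steroid synthesis genes other than Cyp11a1, 2 were higher in NEP tumors (15.5% of all genes), the oxysterol hydroxylase gene Cyp7b1 (0.82) and Hsd17b1, which interconverts estrone and estradiol (0.43), and none lower (8.10%). The median was 0.12 against 0.05 over all genes. Fdx1, the ferredoxin that feeds electrons to the Cyp11a1 enzyme, averaged 8.53 in NEP tumors and 8.52 in GNP tumors. Star, which brings cholesterol to the mitochondrial enzyme, Hsd3b1, Cyp17a1 and Nr5a1, a transcription factor of steroid-making cells, were under the filter, none above 2.32 on any array.

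Among granule lineage genes, 6 of 19 tested progenitor markers were higher in NEP tumors, where 15.5% of all genes were, and none lower, where 8.10% were (median 0.29 against 0.05 over all genes). Pax6, a transcription factor of the lineage, differed by 0.92, Mycn by 0.52 and the chemokine receptor gene Cxcr4 by 0.49. Atoh1, on the same list, was not called, though its tumor arrays did not overlap. It averaged 10.47 ± 0.15 in NEP tumors (lowest array 10.31) and 9.43 ± 0.034 in GNP tumors (highest array 9.45; SD, n = 4 each). Its SD over the NEP arrays, which enter the fit, was 1.59. Mycn was lost after a second quantile normalization, which left 3 called. Of 23 tested postmitotic granule markers, 4 were higher, near the 15.5% of all genes, and none lower (median 0.17), with Cadps2 at 2.60, the plexin gene Plxna2 at 1.73 and the vesicle calcium sensor gene Syt1 at 0.89. Not all of these were low in NEPs: Plxna2 averaged 8.49 there against 5.29 in GNPs. Syt1 averaged 7.59 in NEPs and 8.17 in GNPs, with overlapping arrays. Cadps2, the largest fall of all in NEPs, thus differed between the tumors in the same direction as Cbln1 and Nrn1, and 8.34 in NEP tumors stood against 5.74 in GNP tumors. Against the same 15.5% and 8.10%, of 9 Purkinje and GABAergic markers 3 were higher (Calb1 by 2.04, Car8 by 1.47 and Pcp2 by 0.62) and none lower (median 0.16). Calb1 was under the array median on 3 of 4 GNP tumor arrays and Pcp2 on 2, so the sizes of their differences are uncertain. NEP tumor arrays ran from 2.88 to 5.73 for Calb1 and from 3.48 to 5.85 for Car8. For Car8 they overlapped with GNP tumor arrays. Of 12 glial markers, 3 were higher, among them Prom1 (1.01) and Nes (0.94), and 2 lower, among them Hopx (-1.12), with a median of 0.15. Among 7 oligodendrocyte lineage markers 1, Pdgfra, was higher (0.57; median 0.05), and none of 11 microglia or 12 mesenchymal and endothelial markers was called either way (medians -1.03 and 0.09). The spread of the fit takes in the NEP arrays, whose list medians ran from 2.03 to 8.83 for microglia and from 5.08 to 9.06 for mesenchymal and endothelial markers. The lack of calls on these 2 lists therefore does not show equal levels in the tumors. The median of the 11 microglia markers was 3.61 to 4.48 in NEP tumors, against 5.11 to 5.25 in GNP tumors, and 1 or 2 of the 11 were under the array median on each NEP tumor array.

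Genes most like each member were sought by Pearson correlation over the 19 arrays, which share groups, so r is a description. Cbln1 was most like Sstr2, a somatostatin receptor gene (0.992), Ina, a neuronal intermediate filament gene (0.991), and Kif5c, a kinesin gene (0.989). Nrn1 was most like Ppp2r2c (0.997), the microtubule regulator gene Stmn2 (0.988) and Uncx (0.988). Tbata was most like Btbd11 (0.993), Paip2 (0.989) and Pnma2 (0.988). Cyp11a1 was most like Sfrp1, a secreted Wnt-binding protein gene (0.996), Sema7a (0.991) and Nxph3, a neurexin ligand gene (0.988). Islr2 had the weakest best match, Ccna2, which encodes cyclin A2 (0.962), with 2810408A11Rik (0.949) and E2f8, a cell cycle transcription factor (0.943), next. Ccna2 averaged 9.99 in NEP tumors, 10.36 in GNP tumors, 9.64 in NEPs, 10.42 in GNPs and 10.46 in NSCs, the same order of groups as Islr2 save for the highest ones. Among pairs of the 5 genes, Tbata and Cyp11a1 were most alike (0.970) and Islr2 and Tbata least (0.529).

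Near Cyp11a1 on chromosome 9, Sema7a, an axon growth semaphorin gene whose start lies 58.4 kb away, ran alongside it. Sema7a averaged 10.49 ± 0.041 in NEP tumors, 10.35 ± 0.035 in GNP tumors, 6.54 ± 0.68 in NEPs, 9.77 ± 0.14 in GNPs (SD, n = 4 each) and 9.84 ± 0.061 in NSCs (n = 3). Its tumor difference was 0.14 (limma adjusted p = 0.690). Islr, which lies between Cyp11a1 and Islr2, averaged 6.50 in NEP tumors, 7.49 in GNP tumors, 8.22 in NEPs, 8.67 in GNPs and 8.82 in NSCs, with r = -0.35 to Cyp11a1 and 0.18 to Islr2. Stra6, also between them, had r = 0.83 to Cyp11a1 and 0.77 to Islr2, and averaged 3.34 in NEP tumors and 3.62 in GNP tumors. 1600029O15Rik, whose start lies 6.6 kb from that of Islr2, had r = 0.86 to Islr2. Its group means ran only from 1.71 to 2.50, near or under the array median. Beside Cbln1, Gm2694 was higher in NEP tumors than in GNP tumors by 1.32 (limma adjusted p = 1.88e-04). Neighbours on chromosome 9 therefore did not share one pattern: Sema7a and Cyp11a1 were high in NEP tumors and Islr2 was low.

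**Figure D4:**
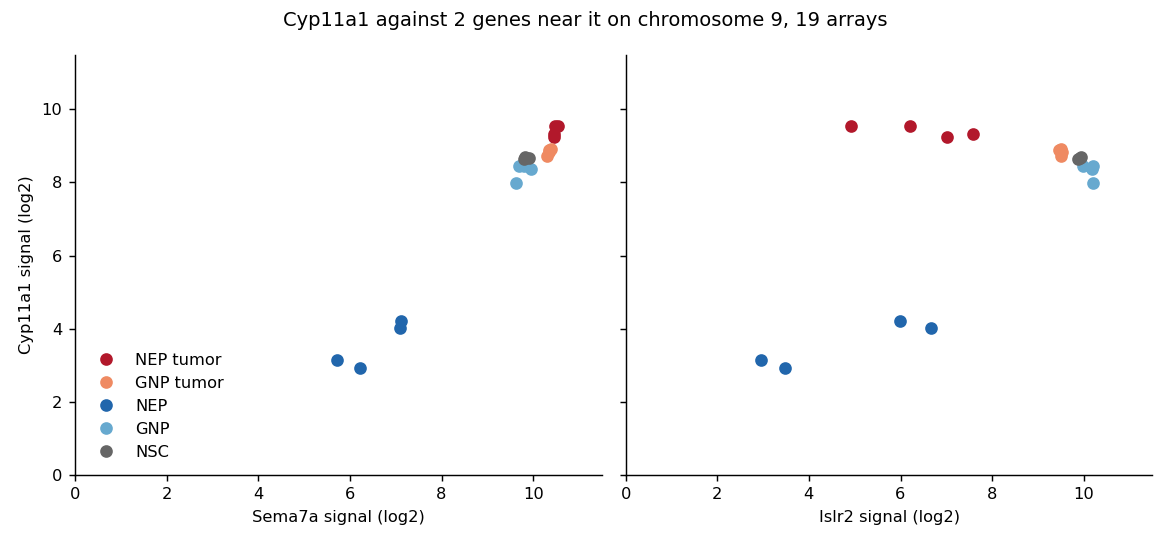
Log2 signal of Cyp11a1 (vertical axis) against that of Sema7a (left, horizontal axis) and of Islr2 (right, horizontal axis) on the 19 arrays, coloured by group. Points follow a line for Sema7a (r = 0.991), while for Islr2 the 4 NEP tumor arrays stand apart at high Cyp11a1 (9.24 to 9.55) and low Islr2 (4.91 to 7.57).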

How the data were processed

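Expression was measured on 19 arrays, 1 per sample by the titles. RMA and Affymetrix Expression Console are named in the submitters' processing notes as the authors' tools for the deposited log2 signals. Their versions and the log base are not given in the sources used here. Spike-in RNAs of known concentration bear on the base: Cre minus BioB averaged 5.52, against 6.06 by their concentrations if the base is 2. Each array has a mean of 3.79, and 0 pairs of arrays hold identical values. RMA, a multi-array method, makes the arrays' distributions alike, so values are relative to the rest of the array.

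Of 45101 probe sets, 64 were controls, 34945 carried 1 symbol, 932 several and 9160 none, and those with 1 symbol were used. Gene IDs matched the RefSeq gene table for 34741 of them, with 0 symbols changed. Each of 18193 genes took the probe set of highest average signal across the 19 arrays. Fits used R 4.3.3 and limma 3.58.1 (lmFit, eBayes, 5 group means, two-sided), with Benjamini-Hochberg adjustment over 12148 genes and calls at an adjusted p below 0.05. Only NEP tumor against GNP tumor and each tumor against NSC were tested, since NEP and GNP arrays chose the members. On simulated data for NEP tumor against GNP tumor, over 12148 genes, 95% of changed genes of size 1 and 94% of size 2 (log2) were recovered, with 16 false calls. Each simulated gene had the same spread in all groups. The real SD was 1.94 in NEPs and 0.076 in GNP tumors for Cbln1, and 2.17 and 0.097 for Nrn1. The recovery therefore does not describe such genes.

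The 5 genes and the 11 gene lists were chosen with earlier results of these data known. Named genes are the members, up to 3 called genes per list with the largest difference between the tumors, and the 3 genes most correlated with each member. Nes, Atoh1, Prom1, Ptch1 and the 3 largest falls in NEPs outside the members are named too. Of the tested genes within 200 kb of a member, only some are named, so they are a selection. Fdx1, Star, Hsd3b1, Cyp17a1, Nr5a1, Cbln4, Ntrk3, Mab21l1 and Sult4a1 were named in addition after their values were seen. Alternatives were a filter at the 75 percentile, no filter, the mean of a gene's probe sets, a second quantile normalization, a variance trend, fits of fewer groups, a replicate block and leaving out arrays.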

Additional observations from a re-analysis of the deposited data

Results flagged for a closer look

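For 4 genes the tumor difference ran opposite to the progenitor difference in sign. Every NEP array was under every GNP array, as the rule fixes. Every NEP tumor array was above every GNP tumor array, as for 19.9% of the genes tested. That share was 32.4% among the 244 genes with a large fall in NEPs. NEP tumor minus GNP tumor was 0.54 for Cbln1, 0.76 for Nrn1, 0.98 for Tbata and 0.58 for Cyp11a1. The difference between the tumor and progenitor contrasts was not tested, because NEP and GNP arrays chose the genes.

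In 3 of the 20 sets of 4 arrays looked at, 1 array lay far from the other 3, by a gap past Dixon's 95% critical value. Islr2 read 9.99 on GNP array 1 (nearest 10.18), Tbata 10.13 on NEP tumor array 3 (nearest 10.33) and Cyp11a1 7.99 on GNP array 4 (nearest 8.38). Chance flags about 1 in 20 such sets. Tbata on NEP tumor array 3 was still above every GNP tumor array.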

How the results depend on the processing

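No direction of a member reversed under the alternatives run. Of the values of members in tested comparisons, 220 kept their side of the threshold, 18 gained a call and 2 lost one. Between the tumors, the count of 2 members called became 5 with only the 2 groups in the fit, 5 with all groups but NEP (added after seeing the data), 5 with the replicate block and the 2 groups, and 1 with NEP tumor arrays 3 and 4 only (also added), which kept Islr2. For NEP tumor against NSC, 3 became 5 with all groups but NEP, 4 with only the 2 groups (Cbln1 gained) and 2 with NEP tumor arrays 1 and 2 only (Cyp11a1 lost). For GNP tumor against NSC, 1 became 2 with the mean of all probe sets (Cyp11a1 0.31, limma adjusted p = 0.0329), 4 with only the 2 groups and 3 with all groups but NEP. Replicate numbers do not pair the samples: deviations of same-numbered tumor arrays correlated at 0.052, -0.0034, -0.043 and 0.042. Of the genes called between the tumors, 65.6% were higher in NEP tumors and 55.5% after a second quantile normalization. NEP, GNP and gap values were described, not tested; 20 of their differences moved by more than the spread of the arrays, nearly all with NEP arrays 3 and 4 only or with the mean of probe sets. Over the alternatives, adjusted p between the tumors ran from 2.46e-05 to 0.0453 for Islr2, from 2.62e-07 to 0.0678 for Tbata and from 0.000641 to 0.296 for Cyp11a1. Few arrays and signals near the array median limit what can be seen.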
